A study of Homo sapiens with 6 samples.

Results

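Clade B serpins, the SERPINB genes, were examined in MCF10A cells, an immortalised, non-tumorigenic human breast epithelial line, after siRNA depletion of the RNA polymerase II transcription factor PAX9. Both groups received 30 nM siRNA for 72 hours, 3 samples with a non-targeting control (siNT) and 3 with siRNAs against PAX9 (siPAX9), and poly(A)+ RNA was sequenced. Growth medium with horse serum, epidermal growth factor, hydrocortisone, cholera toxin and insulin was shared by both groups, and the labels name 1 cell line and no second, independent siRNA treatment. The deposited table holds 1 FPKM per group and locus (fragments scaled to transcript length and to all mapped fragments, as combined by the authors over the 3 samples). It holds no value per sample and no read count, so no error, no interval and no test could be computed for any value here.

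The 10 genes are SERPINB1 to SERPINB9 and SERPINB13, out of 27678 loci with a gene symbol. They were selected on their family symbol, with the FPKM of both groups already known, so their levels and changes are a description. Each symbol was found in exactly 1 row, alone in its gene column. A change is given as log2(siPAX9 FPKM / siNT FPKM), and also with 1 added to both values where 1 group is near 0. A gene or locus is counted as higher or lower when the groups differed at least 2-fold and the larger of both values was an FPKM of 1 or more. This minimum was reached by 9 of the 10 genes, and SERPINB2 and SERPINB7 reached it only in siPAX9.

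Serpins are suicide substrates. The target protease cleaves an exposed loop of the serpin, the reactive centre loop, and is trapped in a covalent complex while the serpin changes fold. Clade B members lack a classical signal peptide and work mostly inside cells, and several are abundant in stratified and glandular epithelia, where their levels follow differentiation and inflammation. The human genes lie in a pair of clusters, on chromosome 6 and on chromosome 18.

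The cell type label was checked first. The 10 basal breast epithelial markers examined were all above an FPKM of 1 in both groups, for example KRT5 at 1558 in siNT and 1807 in siPAX9. Leukocytes carry several proteases that these serpins block, and PTPRC, which marks all leukocytes, was at 0.0166 in siNT and 0.0922 in siPAX9. Of the 9 leukocyte markers, 5 were listed at 0 in both groups, and their summed FPKM of 14.9 in siNT and 57.5 in siPAX9 was nearly all CD14 (14.4 and 56.5). Of the 5 fibroblast markers, DCN (5.85 and 37.9) and COL1A1 (0.454 and 4.13) were higher in siPAX9, while COL1A2 was at 0 and 0.00337, and the 5 summed to 6.33 and 42.1. The part of such cells in the serpin values was not tested. PAX9, the targeted gene, was at 2.80 FPKM in siNT and 0.325 FPKM in siPAX9.

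The serpins fell into 3 groups after PAX9 depletion. SERPINB2, SERPINB7 and SERPINB13 were higher, SERPINB3 and SERPINB4 were lower, and SERPINB1, SERPINB5, SERPINB6 and SERPINB8 stayed within 2-fold. SERPINB9 was near 0 throughout. The 7 genes that reached the minimum in both groups had a median log2 change of -0.26, beside -0.08 over all named loci that did so. The counts of 3 higher and 2 lower stand beside 7.79% of all 12965 named loci with an FPKM of at least 1 that were at least 2-fold higher, and 7.25% that were at least 2-fold lower. Since the genes were selected with these values known, nothing is read from that difference.

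**Figure D1:**
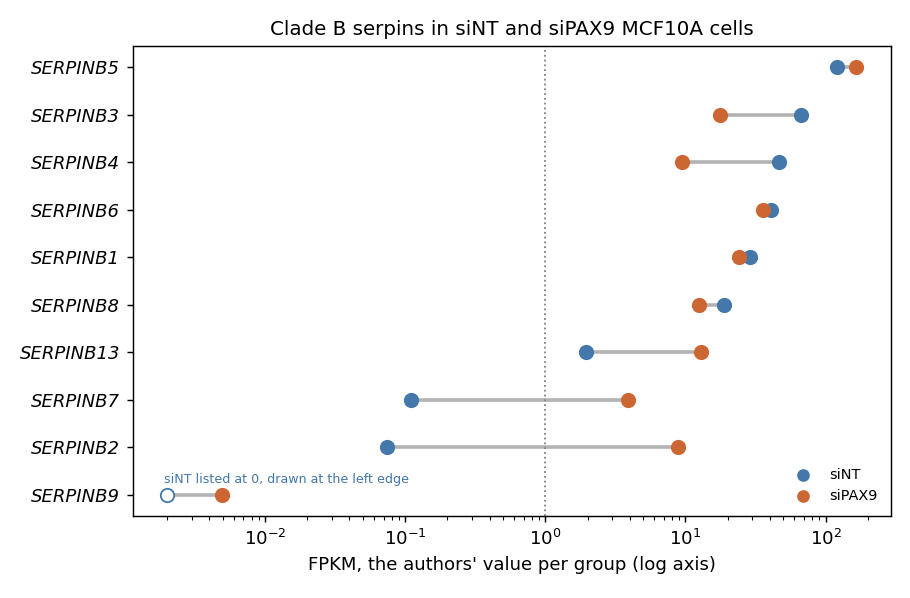
FPKM of each of the 10 genes on a log axis, 1 point per group as the authors combined the samples, ordered by level in siNT, with no error bars because none can be computed; the dotted line is an FPKM of 1. SERPINB2 moves from 0.0742 to 8.85 and SERPINB4 from 46.3 to 9.42, while the siNT and siPAX9 points of each of SERPINB5, SERPINB6 and SERPINB1 lie within 2-fold of each other.

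SERPINB2 encodes plasminogen activator inhibitor type 2, which inhibits urokinase and tissue plasminogen activator. Its locus (chr18:61554939-61571124, plus strand) was at 0.0742 FPKM in siNT and 8.85 FPKM in siPAX9. The control was therefore close to 0 and the depleted cells were at a moderate level, above 47.0% of the named loci compared. The log2 change was 6.90, or 119-fold, and 3.20 with 1 added to both values, so the size of the fold rests on a control value whose precision is unknown. In bulk RNA, more transcript per cell and more cells with the transcript cannot be told apart, here or for the other genes.

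SERPINB7, or megsin, is expressed in the upper epidermis, and its loss causes a palmoplantar keratosis. Its locus (chr18:61420281-61472610, plus strand) was at 0.111 FPKM in siNT and 3.90 FPKM in siPAX9. It was thus the lowest of the 3 higher genes in siPAX9. The log2 change was 5.14, and 2.14 with 1 added to both values. SERPINB13, also known as headpin or hurpin, inhibits the lysosomal cathepsins K and L. Its locus (chr18:61254534-61266507, plus strand) was at 1.95 FPKM in siNT and 12.9 FPKM in siPAX9. Of the 3 it had the highest control level, and its change was the least altered by adding 1 to both values, at a log2 of 2.73 without and 2.24 with.

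The sequences just before the deposited loci of SERPINB2 and SERPINB13 are shown because they are the higher genes whose promoter window holds an exact match to the AP-1 consensus TGANTCA, in capitals with the TATA box TATAAA of SERPINB2. They were taken from RefSeq promoter windows and placed on GRCh37, whose coordinates are those of UCSC hg19. The SERPINB2 stretch is chr18:61554819-61554938 and the SERPINB13 stretch is chr18:61254457-61254533, both on the plus strand, and both end at the last base before the deposited locus. Both lie within the span of the GENCODE gene, which starts further upstream, and overlap 0 of the 28124 annotated exons of any transcript on chromosome 18. SERPINB7, also higher, had no match, and SERPINB5 and SERPINB8, within 2-fold, had one (first base at -146 from the RefSeq start in SERPINB5, and at -185 and -28 in SERPINB8).
SERPINB2: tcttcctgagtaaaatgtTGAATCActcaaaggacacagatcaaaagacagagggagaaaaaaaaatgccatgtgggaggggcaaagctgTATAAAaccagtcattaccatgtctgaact
SERPINB13: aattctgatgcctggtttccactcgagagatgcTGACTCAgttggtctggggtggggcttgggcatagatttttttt

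SERPINB3 and SERPINB4 are the squamous cell carcinoma antigens 1 and 2. SERPINB3 inhibits cysteine cathepsins such as cathepsins K, L and S, and SERPINB4 inhibits the serine proteases cathepsin G and mast cell chymase. The SERPINB3 locus (chr18:61319507-61329197, minus strand) was at 67.3 FPKM in siNT and 17.7 FPKM in siPAX9, which is 3.80-fold lower with a log2 change of -1.93. The SERPINB4 locus (chr18:61304493-61311553, minus strand) was at 46.3 FPKM in siNT and 9.42 FPKM in siPAX9, which is 4.92-fold lower with a log2 change of -2.30. Both were well expressed in each group, and adding 1 to the values moved the changes only to -1.87 and -2.18.

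The pair are tandem copies, and reads that fit both genes cannot be assigned to either. Their coding sequences in the GENCODE annotation were each 1170 bases long and identical at 95.2% of positions, with 56 differences. Among the other 44 pairs of the 10 genes, coding identity ranged from 50.8% to 72.7%. Of the 1632 windows of 76 bases, the stated read length, in the SERPINB3 canonical transcript, 171 (10.5%) were also present exactly in the SERPINB4 transcript, and no such window was shared by any other pair among the 13 clade B genes. The ratio of SERPINB3 to SERPINB4 was 1.45 in siNT and 1.88 in siPAX9. Summed over both loci, which depends little on how shared reads were divided between them, the FPKM was 113.6 in siNT and 27.1 in siPAX9, a log2 change of -2.07.

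The stretch in which the SERPINB3 and SERPINB4 coding sequences differ most is shown because it tells the transcripts apart and encodes part of the reactive centre loop, the part that meets the protease. It holds 20 of the 56 differences within 150 bases, against a median of 5 per window of that length. It covers coding bases 942 to 1091, codons 314 to 364 of 390, and lies in 1 exon of each gene on the minus strand of GRCh37, at chr18:61322973-61323122 in SERPINB3 and chr18:61305035-61305184 in SERPINB4. Capitals mark the bases at which the 2 genes differ.
SERPINB3: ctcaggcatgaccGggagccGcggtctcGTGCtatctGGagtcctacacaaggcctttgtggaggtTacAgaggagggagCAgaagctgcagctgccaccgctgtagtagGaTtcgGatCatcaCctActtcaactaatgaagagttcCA
SERPINB4: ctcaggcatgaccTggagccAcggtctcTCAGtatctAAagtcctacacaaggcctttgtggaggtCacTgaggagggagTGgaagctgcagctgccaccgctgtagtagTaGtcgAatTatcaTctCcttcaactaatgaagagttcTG

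Upstream of the start the pair are more alike still. Over the 250 bases before the RefSeq start, SERPINB3 and SERPINB4 differed at 3 positions (98.8% identity), and neither window held an exact match to TGANTCA or TATAAA.

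SERPINB5, or maspin, is a clade B member that does not act as a protease inhibitor and is known from myoepithelial cells of the breast. Its locus (chr18:61144144-61172318, plus strand) was the highest of the 10 in both groups, at 120.4 FPKM in siNT and 165.0 FPKM in siPAX9. The log2 change was 0.45, in the direction of the 3 higher genes but within 2-fold. In siNT its level was 1622 times that of SERPINB2, and in siPAX9 it was 18.7 times.

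The inhibitors SERPINB6, SERPINB1 and SERPINB8 were a little lower in siPAX9, within 2-fold. SERPINB6, which inhibits cathepsin G and thrombin, was at 41.0 FPKM in siNT and 36.0 FPKM in siPAX9 (chr6:2948390-2972399, minus strand, log2 change -0.19). SERPINB1, which inhibits neutrophil elastase, proteinase 3 and cathepsin G, was at 28.9 FPKM in siNT and 24.2 FPKM in siPAX9 (chr6:2832566-2842283, minus strand, log2 change -0.26). SERPINB8, an inhibitor of the proprotein convertase furin, was at 19.0 FPKM in siNT and 12.5 FPKM in siPAX9 (chr18:61637263-61656608, plus strand). Its log2 change of -0.61 was the largest of the 4 genes within 2-fold. Over named loci that reached the minimum in siNT and in siPAX9 alike, the median log2 change was -0.08, so SERPINB6 and SERPINB1 lay a little below the typical locus. Without values per sample, none of these differences can be set against a spread.

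SERPINB9 inhibits granzyme B and protects cytotoxic lymphocytes from their own protease. Its locus (chr6:2884222-2903546, minus strand) was listed at 0 in siNT and at 0.00492 in siPAX9, so no fold is given. LOC101927730 is listed at the same coordinates, at 0 in both groups. The clade B genes outside the 10 were also near 0. SERPINB10 was at 0.00704 in siNT and 0.0563 in siPAX9, SERPINB11 was at 0.0175 and listed at 0, and SERPINB12 was at 0.0138 and 0.0397.

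**Figure D2:**
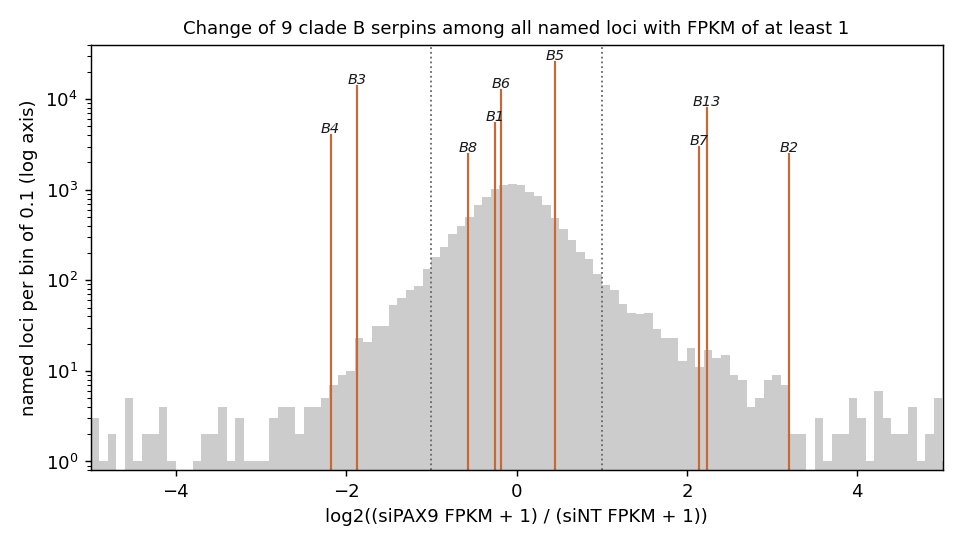
Grey bars count the 12965 named loci that reached the minimum FPKM of 1 by log2 change with 1 added to both values, in bins of 0.1 on a log axis (48 loci lie beyond the axis), and orange lines mark the 9 genes above that minimum, at heights chosen only for legibility. Dotted lines mark a 2-fold change; B2, B13 and B7 lie right of them at 3.20, 2.24 and 2.14, and B4 and B3 lie left of them at -2.18 and -1.87.

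Of those 12965 loci, 78 were listed at 0 in siNT and 56 in siPAX9, and these have no defined log2 change. Among the other 12831, 15 had a larger increase than SERPINB2, 53 a larger increase than SERPINB7 and 207 a larger increase than SERPINB13. At the other end, 106 had a larger decrease than SERPINB4 and 180 a larger decrease than SERPINB3. SERPINB6, SERPINB1 and SERPINB8 lay above 39.9%, 34.7% and 16.0% of these loci, and SERPINB5 above 81.8%.

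The make-up of the clade B mRNA pool differed more than its size. FPKM is per length of transcript, so levels of different genes can be summed and compared. The 10 genes together had 325.1 in siNT and 290.5 in siPAX9, a log2 change of -0.16. SERPINB5 made up 37.0% of the sum in siNT and 56.8% in siPAX9. SERPINB3 and SERPINB4 together made up 35.0% in siNT and 9.34% in siPAX9, and SERPINB2, SERPINB7 and SERPINB13 together 0.657% and 8.83%. The share of SERPINB1, SERPINB6 and SERPINB8 together was nearly the same, at 27.3% and 25.0%. In FPKM, siPAX9 minus siNT came to -86.5 for SERPINB3 and SERPINB4 together, 44.6 for SERPINB5 and 23.5 for the 3 higher genes together. Without SERPINB3 and SERPINB4 the sum was higher in siPAX9, at 263.3 against 211.5 in siNT.

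**Figure D3:**
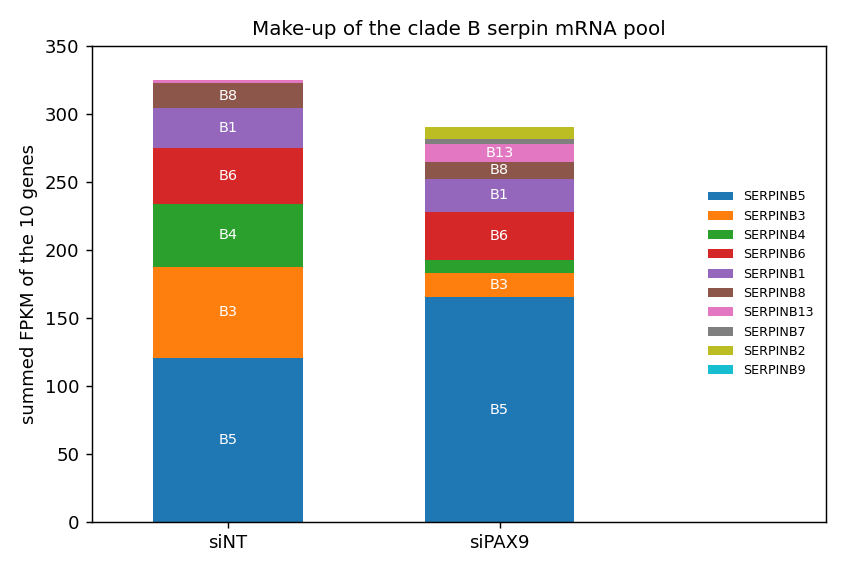
Stacked bars from 0 give the FPKM of the 10 genes in siNT (325.1 in all) and siPAX9 (290.5 in all), with each gene in 1 colour and no error bars because each group is 1 combined value. SERPINB5 takes 120.4 in siNT and 165.0 in siPAX9, and SERPINB3 with SERPINB4 takes 113.6 and 27.1.

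The order of levels was not the same in the groups. In siNT it ran SERPINB5, SERPINB3, SERPINB4, SERPINB6, SERPINB1, SERPINB8, SERPINB13, SERPINB7, SERPINB2 and SERPINB9. In siPAX9 it ran SERPINB5, SERPINB6, SERPINB1, SERPINB3, SERPINB13, SERPINB8, SERPINB4, SERPINB2, SERPINB7 and SERPINB9. SERPINB13 at 12.9 and SERPINB8 at 12.5 in siPAX9 are neighbours that differ little, as are SERPINB4 at 9.42 and SERPINB2 at 8.85, and with no spread their order is not established. The ratio of SERPINB3 to SERPINB13, which share cathepsin targets, was 34.5 in siNT and 1.37 in siPAX9.

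The selection did not use position, and the changes did not follow it as 1 block. The 7 genes on chromosome 18 lie within 512.5 kb, and their log2 changes ran from -2.30 to 6.90. Along the chromosome the order was SERPINB5, SERPINB13, SERPINB4, SERPINB3, SERPINB7, SERPINB2 and SERPINB8. SERPINB13 and SERPINB4, with log2 changes of 2.73 and -2.30, were 38.0 kb apart, and SERPINB3 and SERPINB7, with -1.93 and 5.14, were 91.1 kb apart. SERPINB4 and SERPINB3, 7.95 kb apart, had similar values. SERPINB2 and SERPINB8, 66.1 kb apart, had log2 changes of 6.90 and -0.61. On the strand, the 2 lower genes of the cluster are transcribed from the minus strand and the other 5 from the plus strand.

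The clade B genes with an FPKM near 0 lay between these. SERPINB12 lies between SERPINB5 and SERPINB13, SERPINB11 between SERPINB3 and SERPINB7, and SERPINB10 4099 bases after the end of SERPINB2, with the FPKM values near 0 given above. HMSD, between SERPINB10 and SERPINB8, was listed at 0 in both groups. The nearest named loci before the cluster were VPS4B, at 28.1 FPKM in siNT and 23.1 FPKM in siPAX9, and KDSR, at 39.7 and 20.6. The nearest after it, LOC284294, LINC00305 and LINC01538 at 1 shared locus and then CDH7, were listed at 0.

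On chromosome 6 the 3 genes lie within 139.8 kb, and neither SERPINB1 nor SERPINB6 reached 2-fold. The nearest named loci outside were WRNIP1 (33.2 in siNT and 26.3 in siPAX9), MYLK4 (0.787 and 0.932), LINC01011 (0.328 and 0.532) and NQO2 (6.40 and 3.66 in the higher of its rows). Between SERPINB1 and SERPINB9, SERPINB9P1 was at 0.0129 and 0.0556 and MIR4645 was listed at 0.

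**Figure D4:**
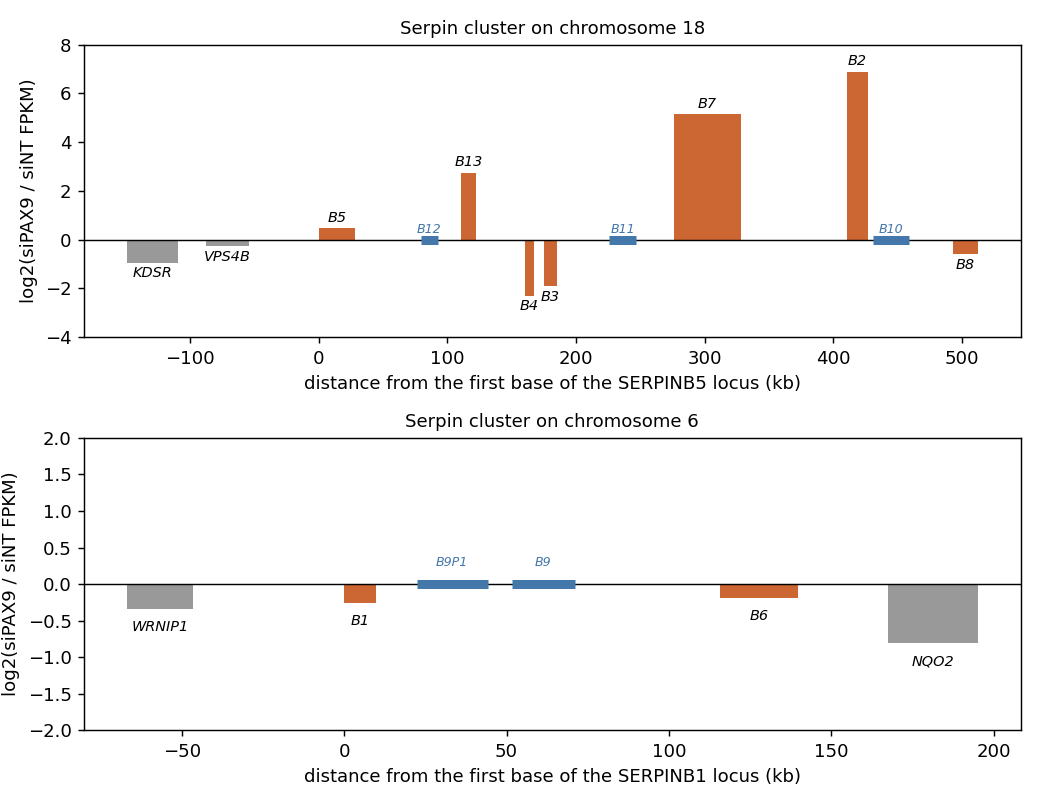
Bars give log2(siPAX9 FPKM / siNT FPKM) of each locus at its place in the cluster, with width equal to locus length and distance in kb from the first base of SERPINB5 (top) or SERPINB1 (bottom); orange is a gene of the set, grey a flanking gene, blue strokes are serpin loci under an FPKM of 1. Only flanking loci with an FPKM of at least 1 in siNT are drawn. On chromosome 18 the bars run from -2.30 at B4 to 6.90 at B2, and on chromosome 6 both serpin bars lie between -0.26 and -0.19.

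Promoter windows of 250 bases were searched on both strands for short exact motifs, using for each gene the RefSeq start nearest to the deposited locus, and all 10 genes had one. The AP-1 consensus TGANTCA was found in 4 of 10 windows, those of SERPINB2, SERPINB13, SERPINB5 and SERPINB8, against 6.57% of 35116 windows in the RefSeq table. Of these 4 genes, 2 were higher in siPAX9 and 2 were within 2-fold. TATAAA was found in SERPINB2, SERPINB9 and SERPINB8 (10.7% of all windows), with its first base at -30 from the start in both SERPINB2 and SERPINB9, the latter near 0 in both groups. The GC box GGGCGG was found in 4 windows, those of SERPINB1, SERPINB5, SERPINB6 and SERPINB9 (42.6%), and the E box CANNTG in 7 (61.8%). GCGTGACCA and GCGGAACGG, which are among the PAX9 binding sequences the study looked for, were found in 0 of the 10 windows, and in 0.137% and 0.188% of all windows. With shares this low, most sets of 10 genes would give 0. The study scanned a longer upstream stretch with a motif tool, and for other sequences too, so its site counts cannot be set beside these. A match is a description of the letters only, and its absence says nothing of a factor.

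Proteases taken as targets of clade B serpins were examined as a list of 18 genes, of which 11 had an FPKM of at least 1. KLK5 and KLK8 were listed for SERPINB6, and KLK7 for SERPINB7 and its neighbours without 1 settled inhibitor. Binding was not tested. Of these 11, 5 were at least 2-fold higher in siPAX9, 1 was at least 2-fold lower and 5 were within 2-fold, beside 7.79% and 7.25% of all named loci above the same minimum. The 5 higher ones reached the minimum only in siPAX9. The 6 that reached it in both groups had a median log2 change of 0.02, beside -0.08 over all named loci that did so. The higher ones were the kallikreins KLK5 (0.128 in siNT and 8.97 in siPAX9), KLK7 (0.394 and 25.5) and KLK8 (0.130 and 5.03), serine proteases that shed cells from the epidermal surface, and the cysteine cathepsins CTSV (0.562 and 2.35) and CTSS (0.429 and 1.03). With 1 added to both values, CTSS was within 2-fold, at a log2 change of 0.50.

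CTSL, a target of SERPINB3 and SERPINB13, was at 36.1 in siNT and 34.6 in siPAX9. CTSK was counted at a locus shared with its neighbour ARNT, at 12.9 and 14.0, and its own level is uncertain. FURIN, the target of SERPINB8, was at 32.5 and 28.8, and CASP1 was at 15.6 and 17.0. The leukocyte proteases CTSG, ELANE and GZMB, targets of SERPINB4, SERPINB1 and SERPINB9, were listed at 0 in both groups, and PRTN3 was at 0.261 and 0.194. CMA1, PLG and F2 were also under 1.

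SERPINB2 belongs to the plasminogen activation system, in which urokinase and tissue plasminogen activator turn plasminogen into the fibrin-cleaving protease plasmin. Of the 13 genes compared for it, 11 had an FPKM of at least 1, with 2 at least 2-fold higher, 3 at least 2-fold lower and 6 within 2-fold, beside the same 7.79% and 7.25% of all named loci. The 10 that reached the minimum in both groups, all but SERPINB2, had a median log2 change of -0.12, beside -0.08 over all named loci that did so. The higher ones were SERPINB2 and PLAUR, the urokinase receptor, at 4.28 in siNT and 19.8 in siPAX9. Urokinase itself, PLAU, was at 20.5 and 34.4, and the tissue activator PLAT was lower, at 35.0 and 12.3. SERPINE2, a further inhibitor of the activators, was at 5.11 and 1.46. The plasmin inhibitor SERPINF2 was at 10.9 and 3.31. Plasminogen, PLG, was listed at 0 in siNT and at 0.0195 in siPAX9. PLGRKT, ANXA2, S100A10, ENO1 and LRP1 were within 2-fold, and VTN was under 1.

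**Figure D5:**
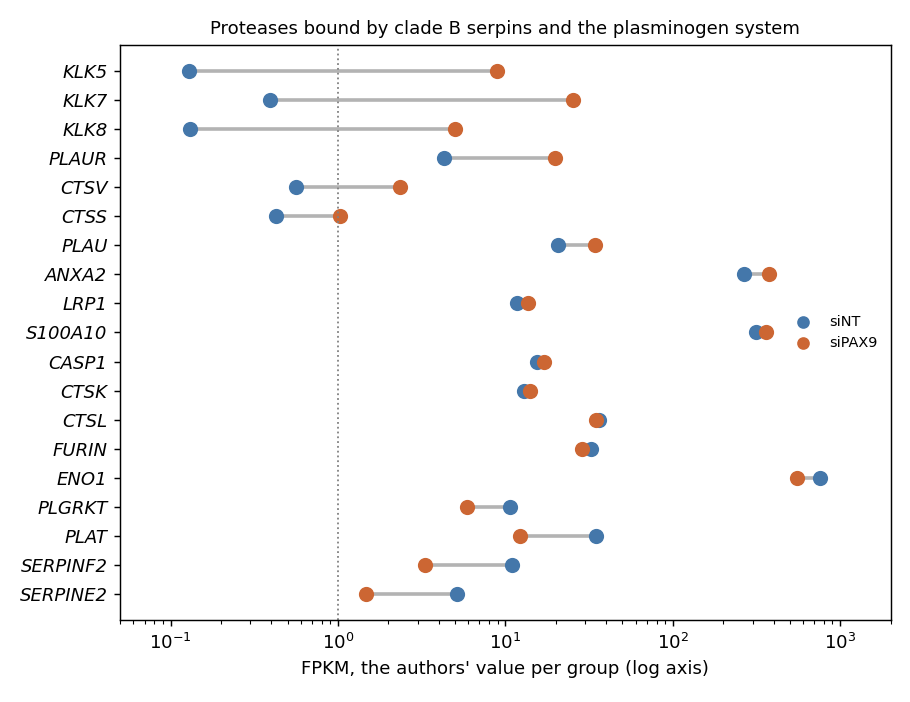
FPKM in siNT and siPAX9 on a log axis for the listed proteases and plasminogen system genes with an FPKM of at least 1, other than clade B serpins, ordered by log2 change, 1 combined value per group and no error bars. KLK5, KLK7 and KLK8 move furthest up (KLK7 from 0.394 to 25.5), PLAT, SERPINF2 and SERPINE2 furthest down, and CTSL and FURIN stay close.

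The loci most like SERPINB2 were sought by the distance in log2(FPKM + 1) over the 2 group values, among 25104 symbols with a row of their own. The nearest 5 were KLK5, MIR203A, SPRR3, SLC6A14 and GPR1, at distances of 0.0731 to 0.181. MIR203A and SPRR3 were listed at 0 in siNT and at 8.91 and 9.17 in siPAX9, and SLC6A14 was at 0.213 and 9.08. For SERPINB3 the nearest 5 were MIR3619, SEMA4B, PTTG1, SERPINA1 and HMGB2, at distances of 0.0681 to 0.298. Likeness here rests on 2 values per locus, and the FPKM of a microRNA locus from poly(A)+ reads is uncertain.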

How the data were processed

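MCF10A cells were sequenced as 6 samples in 2 groups (siNT and siPAX9, from the sample titles). Per the labels and the study's methods, the authors aligned single-end poly(A)+ reads to UCSC hg19 with Bowtie 2, quantified them with Cufflinks in Partek Flow, and deposited 1 FPKM per locus and group over 41656 loci. How libraries were scaled against each other is not given in the sources used here. The table gives no read counts, so the depth at each locus is unknown. The deposited columns with the authors' fold changes, test statistics, p-values and q-values were not used.

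Changes were recomputed from the deposited FPKM with Python 3.11.15, numpy 2.4.6 and pandas 2.3.3. Plots used matplotlib 3.10.9, and coding sequences were aligned with Biopython 1.88. Listed starts were increased by 1, since 7120 of 22663 single-symbol loci then matched an annotated transcript start, against 722 as listed. Annotation was GENCODE release 44 on GRCh37. The RefSeq promoters are given on GRCh38.p14 and were placed on GRCh37 by exact match. Fold calls and the motif search were tested on simulated data.

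The genes, the gene lists and the rule for named genes were chosen with earlier results of these data known. All 10 genes, the other clade B genes, the nearest cluster neighbours and the 5 nearest loci were named. Listed genes past 2-fold or with high FPKM were named too, except that only some of the keratinocyte list were. An item of the lists is not reported here and stays out of their counts. With no value per sample, samples could not be left out or permuted. Alternatives were another added value, minimum, fold, row choice and centring.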

Additional observations from a re-analysis of the deposited data

How the results depend on the processing

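No paired analysis was possible because the table holds 1 combined value per group. For the same reason no sample could be left out. The 9 genes with a log2 change were recomputed under 5 other settings each (1 or 0.1 added, centring on the median, summed rows, rows with the symbol alone). All 45 values kept their direction and their side of 2-fold. Adding the same amount to both values cannot reverse a direction, so only centring could have done so. The ranges were widest for SERPINB2 (3.20 to 6.97) and SERPINB7 (2.14 to 5.22). Row choice changed nothing, since each symbol has 1 row. With a minimum FPKM of 10, 1 gene was higher (SERPINB13) and 2 were lower. At a fold change of 1.5, 3 were higher and 3 lower, with SERPINB8 added at 1.52-fold. At a fold change of 4, 3 were higher and 1 was lower (SERPINB4). No share of all named loci was computed for the minimum of 10 or the fold change of 1.5. The share of named loci at least 2-fold higher was 14.0% with no minimum, 3.22% at a fold change of 4 and 4.94% with 1 added. The share lower was 8.20% with no minimum, 1.71% at a fold change of 4 and 4.86% with 1 added. The summed FPKM of the 10 genes had a log2 change of -0.71 without SERPINB5, -0.21 without SERPINB2 and, in a setting added after the values were seen, 0.32 without SERPINB3 and SERPINB4.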

Other observations

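Serpins of other clades were counted in the same way. Of the 20 genes compared, 8 had an FPKM of at least 1, and of these 1 was at least 2-fold higher in siPAX9, 4 were at least 2-fold lower and 3 were within 2-fold, beside 7.79% of all named loci higher and 7.25% lower. All 8 reached the minimum in both groups, with a median log2 change of -0.56 beside -0.08 over all named loci that did so. The lower ones were SERPINA1, or alpha-1-antitrypsin (82.3 in siNT and 16.7 in siPAX9), SERPINH1, the collagen chaperone HSP47 (72.9 and 29.1), SERPINF2 and SERPINE2. SERPINF1, or pigment epithelium-derived factor, was higher, at 4.23 and 8.65, but fell short of 2-fold with 1 added to both values (log2 change 0.88). SERPINA3, or alpha-1-antichymotrypsin, exceeded every clade B serpin, at 603.8 and 697.6. SERPINA5 and SERPINI1 were within 2-fold. Of the 12 under the minimum, 3 were listed at 0 in both groups.

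Genes of keratinocyte differentiation were set beside SERPINB2, SERPINB7 and SERPINB13, from a list drawn up with results of these data known, so it gives no independent support. Of the 20 listed, 17 had an FPKM of at least 1, and 15 of these were at least 2-fold higher in siPAX9 and 0 lower, beside 7.79% and 7.25% of all named loci. Of the 17, 9 reached the minimum only in siPAX9, among them KLK7, which is also in the protease list. The 8 that reached it in both groups had a median log2 change of 1.86, beside -0.08 over all named loci that did so. With 1 added to both values 13 were higher, without CNFN (log2 change 0.77) and CDSN (0.79). The cysteine protease inhibitor CSTA, or cystatin A, was at 149.5 in siNT and 390.8 in siPAX9, and the cornified envelope cross-linker TGM1 was at 10.6 and 53.6. KRT10, a keratin of suprabasal cells, was at 21.0 and 148.1. These are examples, and some of the 15 changed more, such as SPRR1B at 3.18 in siNT and 333.9 in siPAX9. S100A8 and S100A9 were within 2-fold. LOR, FLG and TGM3, markers of the terminal epidermal layers, were under 1 in both groups.

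A pair of loci without a symbol sit next to serpins, and were picked out with their values in view. One (chr18:61253882-61254423) ends 110 bases before the SERPINB13 locus and overlaps the annotated SERPINB13 gene, and it was at 0.0804 FPKM in siNT and 0.808 FPKM in siPAX9. The other (chr18:61318933-61319454) lies 52 bases beyond the SERPINB3 locus on the side of its 3′ end, within the annotated SERPINB11 gene on the opposite strand, and had 1.21 and 0.0614. Each differed in the same direction as the serpin beside it. The deposited SERPINB3 locus itself runs 2924 bases past the annotated end of the gene. Whether these reads belong to the serpin transcripts was not tested.

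The other marker lists were checked for the cell type label. Of 10 basal markers, 2 were at least 2-fold higher in siPAX9, KRT6A (367.8 and 959.2) and CDH1 (45.3 and 124.4), beside 7.79% of all named loci. Of 5 luminal markers, 3 had an FPKM of at least 1 and were within 2-fold. These were KRT18 (211.7 in siNT and 118.9 in siPAX9), KRT8 (51.7 and 58.7) and GATA3 (6.19 and 7.56). The hormone receptors ESR1 (0.0560 and 0.317) and PGR were under 1. Of 4 endothelial markers, KDR was at 0.798 and 1.94 and PECAM1 at 2.58 and 0.495, while VWF and CDH5 were near 0.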
